A study of Mus musculus with 3 samples.

Results

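The genes described here encode the nuclear subunits of oxidative phosphorylation, the 5 enzyme complexes of the inner mitochondrial membrane that burn NADH and succinate with oxygen and make ATP. Members were the protein-coding mouse genes whose symbols start with Ndufa, Ndufb, Ndufc, Ndufs, Ndufv, Uqcr, Atp5, Cox4i, Cox5, Cox6, Cox7 or Cox8, together with Sdha, Sdhb, Sdhc, Sdhd and Cyc1. This symbol rule holds 97 genes, of which 93 had a probe, among 20637 named genes on the array, and 124 of 39429 probes. Ndufb1, Ndufb4b, Ndufb4c and Ndufs7 had no named probe. By symbol, 37 members belong to complex I, 4 to complex II, 9 to complex III, 18 to complex IV and 17 to complex V, and the other 8 are Ndufaf genes, which encode assembly factors of complex I rather than subunits. The rule used names and no measured value.

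RNA was taken from mouse cells labelled as embryonic stem cells (mESCs) of 3 genotypes, wildtype, LIFR KO and gp130 KO, and each genotype was read on 1 single-colour Agilent array. LIFR is the receptor for the cytokine LIF, and gp130, encoded by Il6st, is its signalling partner, so the series asks what is expressed differently when either chain of the receptor is lost. All 3 cultures were kept, per the labels, under standard conditions for such cells, and the labels give no strain, sex, passage, clone number or way in which the alleles were made. A knockout array may therefore stand for a single clone, and clone and genotype cannot be told apart. With 1 array per genotype there is no spread between cultures and no test, so every difference below is one between 2 arrays.

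Values are scaled signals: the scanner's background-subtracted brightness of a probe, divided by the array's 75th percentile and brought back to a common intensity scale. A log2 ratio is the difference of such values between 2 arrays. Repeated spots of a probe on an array put the 95% half-width of a ratio at 0.146 on the log2 scale, or 1.11-fold, and the scanner software's own error put the standard error of a member's ratio at a median of 0.204. Neither includes the variation between cultures. Differences were counted from a log2 ratio of 0.322 in size, written 0.32 below and chosen as a low bar for genes that move little, and past 2-fold. Scaled signals of different probes are not compared with each other, since each probe binds with its own strength.

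On the arrays themselves, the best Lifr probe read 36.1 in wildtype, 27.5 in LIFR KO and 36.6 in gp130 KO, and Il6st read 340.2, 338 and 316. The labels do not say which exons were deleted, so these probes do not check the genotypes. Of 12 embryonic stem cell markers, 7 were well above background on all 3 arrays, the 12 summed to 2458, 2197 and 2579 in wildtype, LIFR KO and gp130 KO, and Sox2, Zfp42, Dppa3, Fgf4 and Nr0b1 were well above background on none. Of the 7, 4 were lower and 1 higher by at least 0.32 in LIFR KO over wildtype, and Pou5f1 was lower and Dppa5a higher in gp130 KO over wildtype. These marker counts stand beside 20.2% lower and 13.5% higher of all genes in LIFR KO, and 10.4% and 11.2% in gp130 KO. Pou5f1 read 32.3, 20.8 and 21.4, near the detection limit: the lowest signals called well above background were 10.9, 15.3 and 10.2. Esrrb, also dim, read 52.1, 39.1 and 51.6. Nanog read 326, 199 and 347, and Dppa5a 54.0, 75.9 and 106. All 5 epithelial markers were well above background, with sums of 60605, 68396 and 65766 and none past 0.32. Of 6 fibroblast or feeder markers, with sums of 373, 572 and 530.0, Pdgfrb was well above background on none. Of the 5 compared, 1 was higher and 1 lower in LIFR KO, and 3 were higher and 0 lower in gp130 KO, beside the same shares of all genes. Col1a1 read 72.9, 236 and 98.0 and Pdgfra 239, 289 and 353, the only 2 above 0 in LIFR KO. Col1a2 was at -0.05 there, and Thy1, at -0.47 or lower, and Col3a1 were not well above background on that array. The part of these marker differences in the members' ratios was not tested. Stray signal covered 249 spots of the LIFR KO array against 2 and 7 on the others, and no member probe lay in it.

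Electrons enter the respiratory chain through complex I, which oxidises NADH, and complex II, which oxidises succinate. They pass by ubiquinone to complex III, by cytochrome c to complex IV and from there to oxygen, while complexes I, III and IV pump protons that drive ATP synthesis in complex V. Complexes I, III, IV and V combine subunits coded in the nucleus with a few coded in mitochondrial DNA, whereas complex II is coded wholly in the nucleus. Pluripotent stem cells are known for leaning on glycolysis, with an oxidative capacity that differs between their naive and primed states. Probes for the mitochondrially encoded subunits carried no accession in the gene table and were not analysed here.

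The subunit genes as a group lay close together on the 3 arrays. Of the 93 members, 89 (95.7%) were well above background on all 3 arrays, against 63.6% of all named genes, and the other 4 were well above background on none. No member differed by 2-fold in any comparison. Of all genes, 2.62% were higher by that fold and 1.62% lower in LIFR KO over wildtype, 0.98% and 0.785% in gp130 KO over wildtype, and 1.29% and 2.05% in gp130 KO over LIFR KO. The interquartile range of the 81 subunit genes compared was 0.10 on the log2 scale in each knockout over wildtype, against 0.42 and 0.30 for all genes. Part of this gap is shared by bright genes. In the brightest quartile of genes, which held 71 of the 81, the range of all genes was 0.24 in LIFR KO and 0.20 in gp130 KO. That of its subunit genes was 0.10 and 0.08.

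In LIFR KO over wildtype the members had a median log2 ratio of 0.07, where all 14551 genes compared had one of -0.03. One member, Ndufv3, was higher by at least 0.32, beside 13.5% of all genes, and 6 were lower by at least 0.32, beside 20.2%. These 6 were the complex IV isoform genes Cox4i2, Cox6a2 and Cox6b2 and the assembly factor genes Ndufaf3, Ndufaf4 and Ndufaf5. In gp130 KO over wildtype the median was 0.11, against 0.03 for 14903 genes. No member was higher by at least 0.32, beside 11.2% of all genes, and Cox6a2 and Ndufaf3 were lower by that fold, beside 10.4%. Both shares of members lie under those of all genes. Most members are bright, and bright genes passed 0.32 less often. In the brightest quartile of genes, which held 71 of the 81 subunit genes compared, 8.99% of all genes were higher and 6.34% lower in LIFR KO. In gp130 KO these shares were 5.34% and 3.32%. The members' share lower in LIFR KO, 6.74%, was near that of this quartile, and in gp130 KO it was 2.25%.

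Small and one-sided ratios were common among the subunits. In LIFR KO 66 of 81 subunit genes had a ratio above 0, against 42.9% of all genes, and in gp130 KO 76 of 81, against 54.7%. Wildtype was the lowest of the 3 arrays for 65 of the 81 (80.2%), LIFR KO for 15 and gp130 KO for 1, while wildtype was lowest for 35.7% of all genes well above background on 3 arrays. Both knockouts stand against the same wildtype array, so these counts are not independent of each other. Most of these ratios lay within the scatter of repeated spots: 62 of 81 in LIFR KO and 53 of 81 in gp130 KO had a size under 0.146.

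Brightness moved with this pattern. In the brightest quartile of genes, which held 71 of the 81 subunit genes, wildtype was lowest for 50.1% of all genes and for 61 of the 71 subunits. All genes of that quartile had a median log2 ratio of 0.04 in LIFR KO and 0.07 in gp130 KO, and its subunit genes had 0.08 and 0.12. In the dimmest quartile the median of all genes was -0.19 in LIFR KO and -0.02 in gp130 KO. The part of brightness in the members' medians was not tested beyond these values.

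The scaling sets where 0 lies. Dividing by the array median in place of the 75th percentile moved the median of all genes in LIFR KO over wildtype to 0.10 and that of the members to 0.23, with 10 members higher and 2 lower past 0.32 instead of 1 and 6. Of all genes, 23.7% were then higher and 11.7% lower, so both shares of members lay under those of all genes in that setting too. The members' median above that of all genes was 0.10 in the main setting and 0.13 with the array median. It was 0.04 with quantile normalisation, where 57 of 81 subunit genes were above 0 in LIFR KO and 66 of 81 in gp130 KO. One correction turned the direction: normexp background correction, fitted with the stray signal in place, gave the members a median of -0.39 in LIFR KO over wildtype with 4 of 81 subunit genes above 0, and 0.09 with 68 of 81 when fitted without the stray signal.

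**Figure D1:**
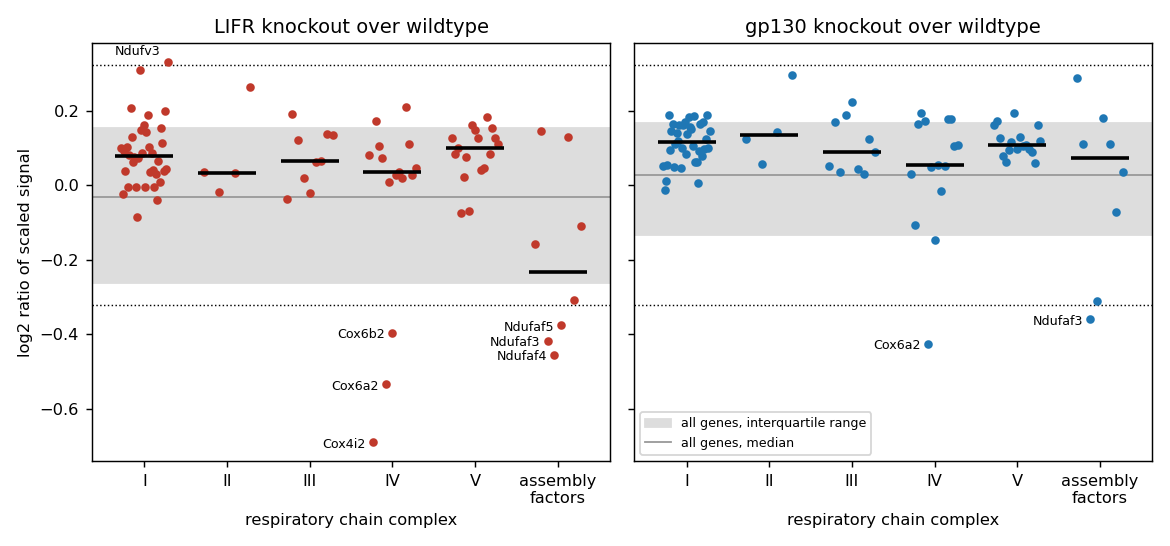
Log2 ratio of scaled signal for each member (points), LIFR KO over wildtype on the left and gp130 KO over wildtype on the right, by complex, with the median of each group as a black bar. The grey band and line are the interquartile range and median of all genes compared, the dotted lines mark 0.32 either way, and named genes are those past it. Nearly all subunit points sit inside or just above the grey band, while Cox4i2 at -0.69 is the farthest below it.

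Complex I takes electrons from NADH in a peripheral arm and pumps protons in a membrane arm. Its 36 genes compared had a median log2 ratio of 0.08 in LIFR KO, from -0.08 to 0.33, and of 0.12 in gp130 KO, from -0.01 to 0.19. The ratio was above 0 for 29 of 36 genes in LIFR KO and for 35 of 36 in gp130 KO, Ndufa10 being the exception in the latter. Set side by side, the 2 knockout arrays differed by a median of 0.04.

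The core subunits carry the flavin and iron-sulfur clusters that pass electrons to ubiquinone. Ndufv1, which binds NADH, read 13792 in wildtype, 15835 in LIFR KO and 15704 in gp130 KO, so that both knockout arrays were higher, by 0.20 and 0.19. Ndufv2 read 10557, 10871 and 11306, and Ndufs1, the largest cluster-bearing subunit, read 5389, 5503 and 5408. Both stayed within the scatter of repeated spots. Ndufs3, of the peripheral arm, read 14348, 14999 and 16073, and gp130 KO was the highest array. Ndufs8, which holds 2 clusters, read 1335, 1372 and 1455.

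The largest complex I ratio was that of Ndufv3, an accessory subunit next to the NADH site. It read 6561 in wildtype, 8243 in LIFR KO and 7263 in gp130 KO, a ratio of 0.33 in LIFR KO. A second, dimmer probe of the gene read 193, 310.2 and 266, with ratios of 0.68 and 0.46. Both probes put LIFR KO highest and wildtype lowest, and they differed in size by more than 0.32, the only such case among 22 members with several detected probes, whose median span was 0.07. With quantile normalisation the Ndufv3 ratio was 0.30, under 0.32, and with normexp fitted with the stray signal it was -0.12.

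Among the other accessory subunits, Ndufb10 of the membrane arm read 7462, 9240.2 and 7999, a ratio of 0.31 in LIFR KO and 0.10 in gp130 KO, the lowest of complex I in gp130 KO over LIFR KO at -0.21. Ndufa9, which sits near the ubiquinone site, went the other way and read 2837, 2675 and 3173. Its ratios were -0.08 in LIFR KO, the lowest of complex I there, and 0.16 in gp130 KO. Ndufa13, also known as the cell death regulator Grim19, read 17959.7, 19276 and 20464 and had the highest complex I ratio in gp130 KO at 0.19. Ndufa10 read 1344, 1321 and 1333 and was level on the 3 arrays.

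By symbol class, the 14 Ndufa genes compared had medians of 0.07 in LIFR KO and 0.10 in gp130 KO, and the 10 Ndufb genes, all of the membrane arm, had 0.12 and 0.15. The 7 Ndufs genes had 0.04 and 0.10. Ndufab1, which doubles as the acyl carrier protein of mitochondrial fatty acid synthesis, read 565, 595 and 584. Ndufa4, named for complex I and now counted as a subunit of complex IV, read 28547, 32965 and 31975, with ratios of 0.21 and 0.16. Leaving it out moved the complex I medians only to 0.07 and 0.11.

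Complex II links the respiratory chain to the TCA cycle by oxidising succinate, and all 4 of its genes were well above background on all arrays. Sdha, the flavin subunit that binds succinate, read 3722, 3813 and 4059. Sdhb, the iron-sulfur subunit, read 21789.7, 21516 and 22652, and the membrane anchor Sdhc read 8969, 9176 and 9905. By these probes the LIFR KO ratio lay between -0.02 and 0.03 and gp130 KO was the highest array. The dimmer probes gave other orders: for Sdhb they read 3880, 3888 and 3764, with gp130 KO lowest, and for Sdhc 1267, 1375 and 1364, with a LIFR KO ratio of 0.12. The second anchor, Sdhd, read 7246 in wildtype, 8692 in LIFR KO and 8885 in gp130 KO. Its ratios of 0.26 and 0.29 were the highest of complex II in both comparisons, 1.2-fold and 1.23-fold, and the gp130 KO ratio was the highest of all members.

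Complex III passes electrons from ubiquinol to cytochrome c. Its 9 genes had a median of 0.06 in LIFR KO, from -0.04 to 0.19, and of 0.09 in gp130 KO, from 0.03 to 0.22, with all 9 above 0 in the latter. The catalytic subunits differed little: Cyc1, cytochrome c1, read 7461, 7269 and 7737, and Uqcrfs1, the Rieske iron-sulfur protein, read 13192, 13795 and 13459. Uqcrc1, a core protein of the matrix side, read 6018, 5929 and 7031 and was 1.17-fold higher in gp130 KO than in wildtype and 1.19-fold higher than in LIFR KO. Its partner Uqcrc2 read 6783, 7088 and 6993. Among the small subunits, Uqcr10 read 11025, 12578 and 12399.7 and was the highest of complex III in LIFR KO at 0.19, and Uqcr11 read 12187, 13246 and 12488. Uqcrb, near the ubiquinone site, read 10304, 10442 and 11737, with gp130 KO over LIFR KO at 0.17. Its other detected probes gave 0.04 and -0.03 there, so gp130 KO was the highest array by 2 of 3 probes.

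Complex V, the ATP synthase, had the smallest SD between genes of the 5 complexes in both knockouts over wildtype, 0.074 and 0.038. Without its tissue-restricted isoforms, complex IV had 0.065 in LIFR KO, under complex V, and 0.063 in gp130 KO. Its 17 genes had a median of 0.10 in LIFR KO, from -0.07 to 0.18, and of 0.11 in gp130 KO, from 0.06 to 0.19, and in gp130 KO all 17 were above 0. In the catalytic head, the alpha subunit gene Atp5a1 read 16233, 17711 and 18143 and the beta subunit gene Atp5b read 46953, 49717 and 52920.5. For both, wildtype was lowest and gp130 KO highest. Atp5d, the delta subunit of the central stalk, read 6478, 6154 and 6843 and had the lowest LIFR KO ratio of complex V at -0.07.

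The membrane ring is built from identical copies of subunit c, which 3 genes encode with the same mature protein. Atp5g1 read 15544, 16390.4 and 16582, with ratios of 0.08 and 0.09. Atp5g2 read 25665, 24453 and 27794, with a LIFR KO ratio of -0.07, and by its second probe 18791.5, 19008 and 19820, with one of 0.02, so the order of wildtype and LIFR KO depended on the probe. Atp5g3 read 45346, 50698 and 51868, with ratios of 0.16 and 0.19, the latter the highest of complex V in gp130 KO. The peripheral stalk genes Atp5pb, Atp5h, Atp5j and Atp5o had LIFR KO ratios of 0.11, 0.15, 0.13 and 0.13. Atp5l, a subunit that helps synthase dimers form, read 26304, 29876 and 28152, and its 5 probes gave LIFR KO ratios from 0.10 to 0.27, all above 0. Atp5mpl, a small membrane subunit, read 12389, 13787 and 12921, and its ratios were the lowest of complex V in gp130 KO over wildtype, 0.06, and over LIFR KO, -0.09.

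Complex IV, cytochrome c oxidase, reduces oxygen and is the complex whose subunits come in tissue-specific isoforms. Its 15 genes compared had a median of 0.04 in LIFR KO, from -0.69 to 0.21, and of 0.05 in gp130 KO, from -0.43 to 0.19, the widest range of the 5 complexes in each. Without the isoforms that are restricted to some tissues the medians of the 11 genes left were 0.07 and 0.11, all 11 above 0 in both comparisons. Their ranges were 0.01 to 0.21 and 0.03 to 0.19.

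Cox4i2, the isoform of subunit 4 known from lung and from low oxygen, read 553 in wildtype, 343 in LIFR KO and 513 in gp130 KO. LIFR KO stood alone at the low end, with ratios of -0.69 over wildtype (1.61-fold lower) and 0.58 for gp130 KO over LIFR KO, the largest of all members in both comparisons. The usual isoform, Cox4i1, read 19924, 21081 and 20357 and was 1.06-fold higher in LIFR KO than in wildtype. The Cox4i2 ratio in LIFR KO lay between -0.69 and -0.53 under all but 1 of the alternative settings, and at -0.22 with normexp fitted with the stray signal.

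Cox6b2, the testis isoform of subunit 6b, followed the same order at smaller size: it read 519, 394 and 469, with ratios of -0.40 and -0.15. Cox6b1, its usual counterpart, read 1128, 1135 and 1168. Of 5 testis and germ line markers, 1, Tnp1, was well above background on all arrays, at 31.6, 23.2 and 28.5, and Ddx4, Dazl and Sycp3 were well above background on none. Cox6a2, the heart and skeletal muscle isoform of subunit 6a, was near the detection limit at 29.1, 20.1 and 21.6, highest in wildtype. Its scanner error was the widest of all members, 0.33 on the ratio of -0.53 in LIFR KO and 0.27 on that of -0.43 in gp130 KO. With normexp fitted without the stray signal these ratios were -0.22 and -0.04, and fitted with it the LIFR KO ratio was 1.71. By brightness, Cox6a2 lay in the dimmest quartile of genes and Cox4i2 and Cox6b2 in the next. In LIFR KO 35.7% and 21.6% of all genes in these quartiles were lower by at least 0.32, and 13.1% and 15.9% higher. Their all-gene medians were -0.19 and -0.07. The part of brightness in the ratios of these isoform genes was not tested.

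Cox7a1, the muscle isoform of subunit 7a, read 50.1, 51.4 and 49.5, with a LIFR KO ratio of 0.04. With normexp fitted with the stray signal that ratio was 1.40, and fitted without it -0.07. Among 6 muscle and heart markers, Myh6 and Myh7 were well above background, at 24.7, 30.5 and 21.7 and at 37.4, 31.8 and 32.0, and Tnni3, Ckm, Actc1 and Mb were not. Cox7a2, the usual isoform, read 11576, 11726 and 11989. Cox7a2l, a related protein that joins complexes III and IV into supercomplexes, read 20973, 24263 and 23709.6 and had the highest complex IV ratio in LIFR KO, 0.21. Cox5b, a subunit without such isoforms, read 16182, 17398 and 18501.5 and had the highest in gp130 KO, 0.19.

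The other 4 members, none of them detected, were all isoforms of restricted expression: Cox7b2, Cox8b, Cox8c and the complex IV-associated Ndufa4l2, which is induced by low oxygen. Their readings lay under the lowest signal called well above background, which was 10.9 in wildtype, 15.3 in LIFR KO and 10.2 in gp130 KO. Cox8b, the muscle isoform, read 2.60, 3.61 and 7.81, and no order is read from such values. The usual isoforms of the same subunits were all well above background: Cox7b read 13203, 14259 and 14944 and Cox8a read 46857, 48382 and 50455.

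**Figure D2:**
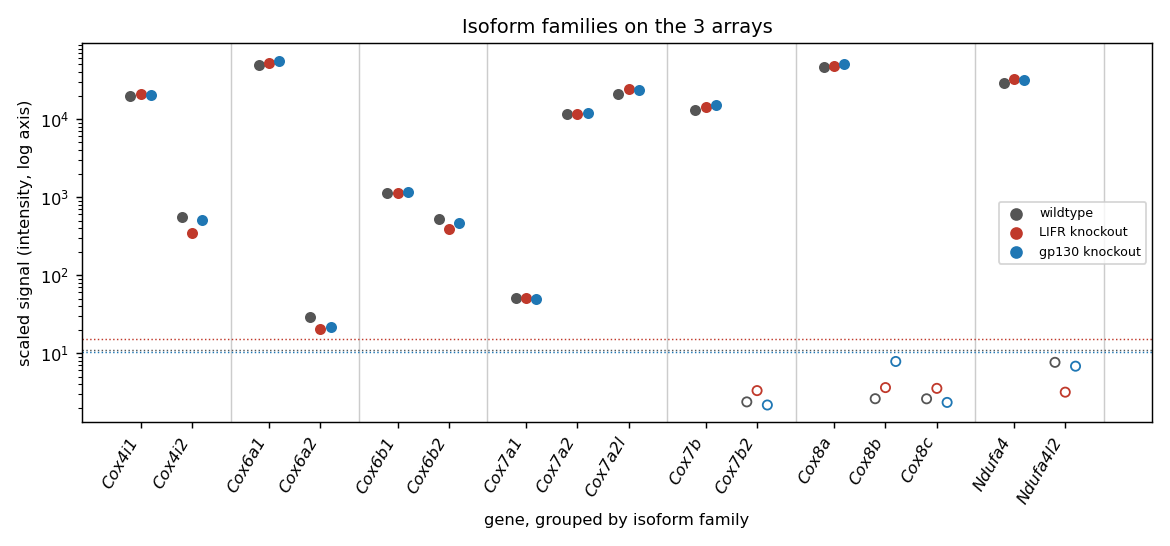
Scaled signal (log axis) of isoform genes on the wildtype, LIFR KO and gp130 KO arrays, grouped by family. Filled points are probes well above background on all 3 arrays, open points are well above background on none, and dotted lines give each array's lowest signal called well above background. Heights of different probes are not comparable; within a gene, Cox4i2 and Cox6b2 show LIFR KO as the low point and Cox7b2, Cox8b, Cox8c and Ndufa4l2 fall under the lines.

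The promoters of an isoform pair of subunit 8, of which Cox8a was detected and Cox8b was not, are shown for contrast, with those of Cox6a1 (complex IV), Sdhd (the highest ratio in gp130 KO) and Ndufaf4 (the lowest assembly factor in LIFR KO). Each run covers 250 bases before and 30 bases after the RefSeq start on the coding strand of GRCm38.p6, and capitals mark exact matches on either strand to CGCATGCG (the core of the NRF1 motif), CCGGAAG (an ETS-type motif bound by GABP) and TATAAA (the TATA box). NRF1 and GABP are textbook activators of respiratory chain genes.
Cox8a, chr19:7217587-7217866, minus strand: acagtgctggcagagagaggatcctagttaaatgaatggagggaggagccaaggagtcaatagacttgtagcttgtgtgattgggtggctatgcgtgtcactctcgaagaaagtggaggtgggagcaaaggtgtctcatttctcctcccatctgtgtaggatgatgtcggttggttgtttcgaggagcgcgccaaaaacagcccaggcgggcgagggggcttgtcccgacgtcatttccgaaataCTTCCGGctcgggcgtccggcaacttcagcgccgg
Cox8b, chr7:140900417-140900696, minus strand: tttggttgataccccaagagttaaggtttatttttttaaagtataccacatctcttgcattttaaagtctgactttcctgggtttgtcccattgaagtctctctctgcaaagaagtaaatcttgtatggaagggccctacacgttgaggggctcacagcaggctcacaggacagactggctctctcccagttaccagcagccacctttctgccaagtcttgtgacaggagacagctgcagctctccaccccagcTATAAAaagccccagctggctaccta
Cox6a1, chr5:115348929-115349208, minus strand: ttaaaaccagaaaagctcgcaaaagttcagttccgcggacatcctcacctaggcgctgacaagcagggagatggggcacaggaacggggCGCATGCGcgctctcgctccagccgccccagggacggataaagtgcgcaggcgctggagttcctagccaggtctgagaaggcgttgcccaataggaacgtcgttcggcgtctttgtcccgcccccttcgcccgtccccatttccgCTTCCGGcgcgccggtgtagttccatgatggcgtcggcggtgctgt
Sdhd, chr9:50603820-50604099, minus strand: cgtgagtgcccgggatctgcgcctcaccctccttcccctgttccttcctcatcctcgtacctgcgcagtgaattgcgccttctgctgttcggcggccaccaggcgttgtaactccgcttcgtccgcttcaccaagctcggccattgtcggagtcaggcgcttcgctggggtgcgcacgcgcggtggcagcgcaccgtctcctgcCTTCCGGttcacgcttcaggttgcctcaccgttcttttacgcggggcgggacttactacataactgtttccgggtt
Ndufaf4, chr4:24897833-24898112, plus strand: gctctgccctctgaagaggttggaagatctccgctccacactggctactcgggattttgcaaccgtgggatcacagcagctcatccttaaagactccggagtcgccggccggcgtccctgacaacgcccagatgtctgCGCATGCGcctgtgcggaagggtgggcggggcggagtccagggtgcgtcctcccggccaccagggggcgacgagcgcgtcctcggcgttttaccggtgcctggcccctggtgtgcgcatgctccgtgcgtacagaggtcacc
The Cox8a run has a GC content of 55.4% and 17 CpG sites and an ETS-type match that spans the start, whereas the Cox8b run has 47.5%, a single CpG site and 1 match, to TATAAA, which lies after the annotated start.

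Over the whole 300-base windows of the RefSeq table, which reach 50 bases past the start, 75 of the 93 members had a window. The NRF1 letters were found in 11 of the 75 (14.7%) and in 2.07% of the 27025 genes with a window. A longer form, the same letters with a G before and a C after, had been counted first and was in 7 members (9.33%) and 1.07% of genes; the core was chosen after those counts were seen. The ETS-type letters were found in 19 (25.3%), against 9.93% of all genes, and ATGGCGGC, the letters of the YY1 motif, in 6 (8.0%), against 2.6%. TCAAGGTCA, the ERR motif, was in the windows of Atp5g3 and, outside the printed run, Sdhd, 2.67% of members against 0.466% of genes. TATAAA was found in 7 members (9.33%) against 15.7% of all genes. None of these letter strings contains another, and a match is a description of the letters and not a bound site. The NRF1, ETS-type and YY1 letters hold CpG. The windows of 64 subunit genes outside the tissue isoforms had a median of 19.5 CpG sites, against 8.0 for all genes. The part of CpG content in the motif shares was not tested.

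Among 4 tissue-restricted isoforms with a window (Cox6b2, Cox7a1, Cox7b2 and Cox8b), 0 held the NRF1 or ETS-type letters and 2 held TATAAA. Their median GC content was 50.8% with 8.5 CpG sites, against 59.0% and 19.5 for 64 other subunit genes and 53.3% and 8.0 for all genes. Among those 64 genes, the 17 with the ETS-type letters had a median log2 ratio of 0.08 in LIFR KO and 0.11 in gp130 KO, and the ones without had 0.08 and 0.12.

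The 8 Ndufaf genes encode proteins that help build complex I and do not stay in it. Their median log2 ratio was -0.23 in LIFR KO and 0.07 in gp130 KO, and LIFR KO was the lowest array for 6 of the 8, beside 44.0% of all genes well above background on 3 arrays. In LIFR KO 3 of 8 were lower by at least 0.32, beside 20.2% of all genes, and in gp130 KO 1 of 8 was, beside 10.4%. In gp130 KO over LIFR KO 2 of the 8 were higher by at least 0.32, beside 16.2% of all genes. By brightness, 0 of the 8 lay in the brightest quartile of genes, 5 in the next and Ndufaf3, Ndufaf5 and Ndufaf7 in the one below, where all genes had LIFR KO medians of 0.01 and -0.07. The part of brightness in the assembly factors' median was not tested.

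Ndufaf4, which acts early in assembly with Ndufaf3, read 2578 in wildtype, 1882 in LIFR KO and 2079 in gp130 KO, a ratio of -0.45 in LIFR KO and -0.31 in gp130 KO. Its second probe read 559.7, 434 and 422, with ratios of -0.37 and -0.41, so both probes put wildtype highest, and the dimmer one put gp130 KO lowest. Ndufaf3 read 232, 174 and 181, with ratios of -0.42 and -0.36. In both comparisons these partners had the lowest ratios of the 8. Both stand against the same wildtype array, so the 2 ratios of a gene are not independent.

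Ndufaf5, which modifies the core subunit Ndufs7, read 155, 119 and 176, and was lower in LIFR KO at -0.38 and higher in gp130 KO at 0.18. No other setting gave it a lower LIFR KO ratio. It did not reach 0.32 lower with quantile normalisation or with normexp fitted without the stray signal. Ndufaf1, a chaperone of the membrane arm, read 1071, 960.3 and 1307, with ratios of -0.16 and 0.29. For these 2 genes gp130 KO stood above LIFR KO by 0.56 and 0.44, the only members besides Cox4i2 past 0.32 in that comparison. Ndufaf7, a methyltransferase, read 710.3, 574 and 676, with ratios of -0.31 and -0.07, and Ndufaf8, a partner of Ndufaf5, read 1781, 1651 and 1826. Ndufaf2 and Ndufaf6 lay on the other side, with Ndufaf2 at 2037, 2255 and 2199 and Ndufaf6 at 1291, 1412 and 1395.

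Only 3 members had a LIFR KO ratio of over 2 scanner errors, Cox4i2, Ndufaf3 and Ndufaf4, and none did in gp130 KO over wildtype. In gp130 KO over LIFR KO these were Cox4i2, Ndufaf1 and Ndufaf5. With normexp fitted with the stray signal, Ndufaf3 and Ndufaf5 turned to 0.41 and 0.66 in LIFR KO. With the array median as the scale, the assembly factor median in LIFR KO was -0.08 and that of all genes 0.10.

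**Figure D3:**
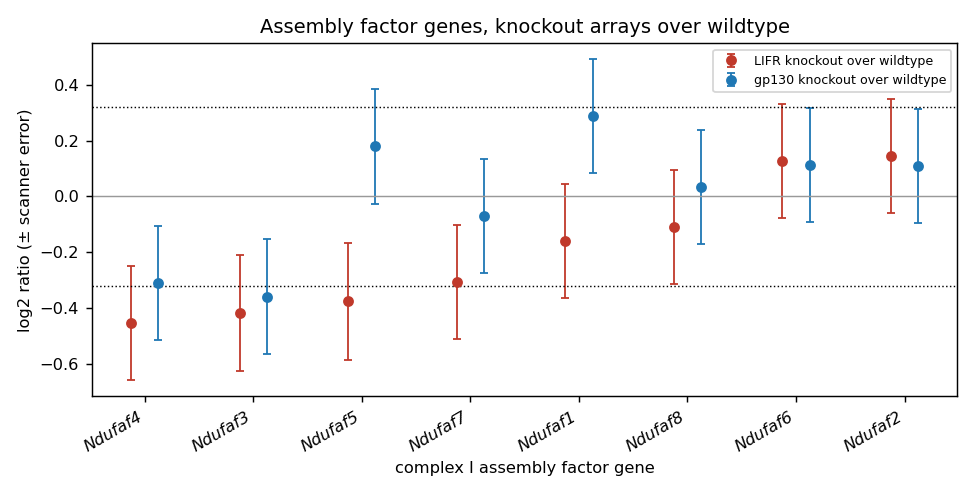
Log2 ratio of the 8 complex I assembly factor genes, LIFR KO over wildtype (red) and gp130 KO over wildtype (blue), ordered by the LIFR KO ratio. Bars are the scanner software's error of the ratio, not a spread between cultures, and dotted lines mark 0.32 either way. Ndufaf3, Ndufaf4 and Ndufaf7 are below 0 on both arrays, and Ndufaf1, Ndufaf5 and Ndufaf8 have opposite signs on the 2 arrays.

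In gp130 KO over LIFR KO the members had a median of 0.04, against 0.05 for 14765 genes compared, and 62 of 89 were above 0, beside 59.4% of all genes. The complex medians were 0.04 for complex I, 0.08 for II, -0.02 for III, 0.06 for IV and 0.03 for V. 3 members were higher by at least 0.32, beside 16.2% of all genes, and none was lower, beside 9.71%. In the brightest quartile of genes, 4.51% of all genes were higher and 4.82% lower. With the array median as the scale the members' median was -0.11 and that of all genes -0.07, and with normexp fitted with the stray signal they were 0.48 and 0.00.

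The genes around the complexes were read from lists set up by role, and their counts past 0.32 stand beside 13.5% higher and 20.2% lower of all genes in LIFR KO over wildtype and 11.2% and 10.4% in gp130 KO over wildtype. Of 40 compared assembly factors outside the symbol rule, 1 (2.5%) was higher by at least 0.32 and 5 (12.5%) were lower in LIFR KO, both under the shares of all genes, and 0 were past it in gp130 KO, with medians of -0.09 and -0.04. Sco2, a copper chaperone of complex IV, read 1931, 967 and 1839, a ratio of -0.998 in LIFR KO that stops just short of 2-fold. Timmdc1, an assembly factor of the complex I membrane arm, read 1200.4, 716 and 1030.3, and LIFR KO was again the low array. Cox19, another copper chaperone of complex IV, read 922, 1452 and 1017 and was higher in LIFR KO by 0.66. In gp130 KO over LIFR KO, 7 of 39 (17.9%) were higher, beside 16.2% of all genes, and 2 (5.13%) lower, beside 9.71%, with Sco2 at 0.93 and Coa4 at 0.57 the highest and Cox19 at -0.51 and Sco1 at -0.34 the lowest.

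Of 10 electron carrier and ATP export genes, with medians of 0.08 and 0.12, Etfdh alone was past 0.32. It brings electrons from fatty acid oxidation to ubiquinone and read 987, 1544 and 1375, with ratios of 0.65 and 0.48. Cycs, cytochrome c, read 29148, 27621 and 28636, and Slc25a4, an ADP and ATP exchanger, read 25540.0, 27413 and 27966. In ubiquinone synthesis, Pdss1, which makes the side chain, read 1543, 1061 and 1163 and was lower on both knockout arrays at -0.54 and -0.41. The same list of 13 genes had medians of 0.03 and 0.08. In LIFR KO 1 of 12 was higher and 1 lower (8.33% each), shares under those of all genes. In gp130 KO 2 were higher, Coq10a at 0.50 and Coq8a, and 2 lower, Pdss1 and Coq10b at -0.32 (15.4% each). Coq8a was well above background on the gp130 KO array only and was at least 2.23-fold higher there than in wildtype. It entered the comparison through the array where it was high, so nothing is read from the share of higher genes. Coq3 was near the detection limit, at 27.4, 39.6 and 23.7, and was the only gene of this list past 0.32 in gp130 KO over LIFR KO, at -0.74.

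The 22 compared genes of the TCA cycle and pyruvate dehydrogenase had medians of 0.04 in both knockouts. Pdp2, a pyruvate dehydrogenase phosphatase, read 433, 259.6 and 429.6 and Suclg2, a succinyl-CoA synthetase subunit, read 1402, 1037 and 1415, with ratios of -0.74 and -0.43 in LIFR KO and of -0.01 and 0.01 in gp130 KO. With Pdk2 they were the genes of the list past 0.32 in LIFR KO, and 0 were in gp130 KO. In gp130 KO over LIFR KO, Pdp2 at 0.73 and Suclg2 at 0.45 were the highest and Pdp1 at -0.47 and Pdhx at -0.32 the lowest. Pdk2, a pyruvate dehydrogenase kinase, read 29.4, 40.1 and 35.7. Citrate synthase, Cs, read 29501, 33357 and 34988.

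Among 15 compared regulators of mitochondrial genes, with medians of -0.03 and 0.06, 1 was higher by at least 0.32 in LIFR KO, Tfb2m, a mitochondrial transcription factor, at 1295, 1630.1 and 1546. In gp130 KO the mitochondrial RNA polymerase gene Polrmt was higher, at 1559, 1804 and 2029, and the coactivator gene Ppargc1b was lower, at 67.5, 78.1 and 50.7. Nrf1 read 973, 952 and 1029, Gabpa read 1684, 1791 and 1954, and Ppargc1a was detected on no array. Tfb1m was higher in gp130 KO over LIFR KO, at 0.34, and Ppargc1b at -0.62 and Esrra at -0.44 were lower. The 76 compared mitochondrial ribosomal protein genes had medians of -0.02 and 0.02, with 4 higher and 4 lower in LIFR KO (5.26% each) and 1 and 1 in gp130 KO (1.32% each), all under the shares of all genes. Mrps2, at 1146, 782 and 1022, was the lowest of them in LIFR KO, and Mrpl49, at 3423, 4696 and 3694, the highest, next to Mrpl17 at -0.50 and Mrpl43 at 0.36. Past 0.32 in gp130 KO over wildtype were Mrps6, at 0.46, and Mrpl17, at -0.38. Between the knockout arrays, gp130 KO over LIFR KO, Mrps2 at 0.39 and Mrps27 at 0.37 were the highest and Mrpl43 at -0.42 and Mrpl41 at -0.35 the lowest.

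**Figure D4:**
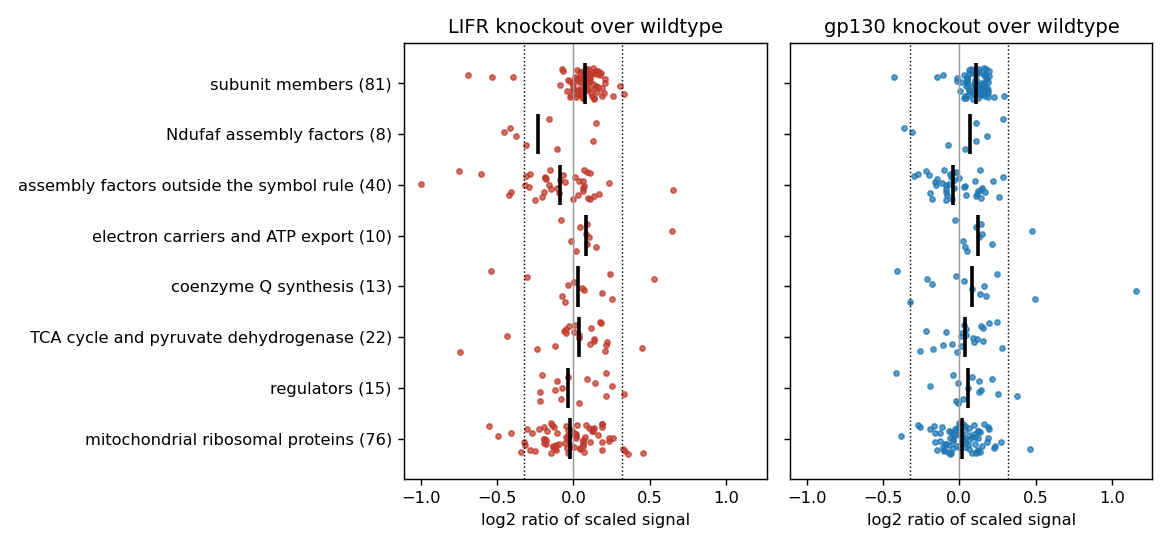
Log2 ratio of scaled signal for each compared gene (points) of the subunit members, the Ndufaf assembly factors and 6 lists of other mitochondrial genes, LIFR KO over wildtype on the left and gp130 KO over wildtype on the right, with list medians as black bars and 0.32 either way as dotted lines; the number in brackets is the number of genes compared in gp130 KO. The 81 subunit genes have interquartile ranges of 0.10 in both panels, the lowest point in LIFR KO is Sco2 at -0.998, and the highest in gp130 KO is the lower bound of Coq8a.

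**Figure D5:**
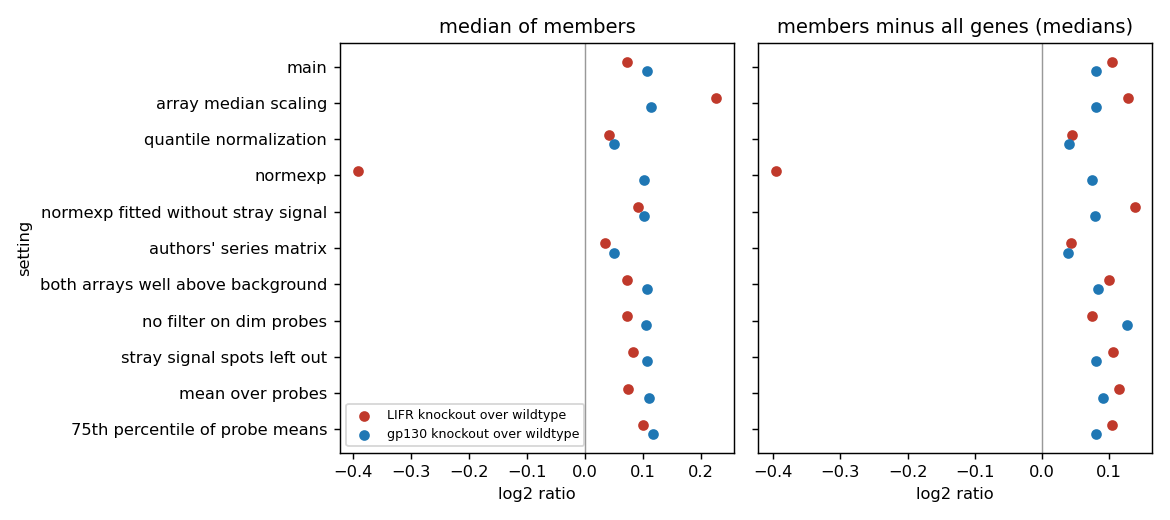
Median log2 ratio of the members (left) and that median minus the median of all genes (right) under the main setting and 10 alternatives, for LIFR KO over wildtype (red) and gp130 KO over wildtype (blue). The gp130 KO points stay between 0.05 and 0.12 on the left, and the LIFR KO point of normexp fitted with the stray signal, at -0.39, is the only one below 0.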

How the data were processed

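RNA was isolated with Trizol and Cy3-labelled, per the labels. The deposited intensity is the scanner software's processed signal, background-subtracted but not normalised between arrays, per the file headers (Feature Extraction 11.0.1.1, design 026655; the submitters' processing notes name version 9.1). The deposited flags of 0 or 1, another kind of value per the file headers, mark spots well above background and outliers. A series matrix deposited by the authors in log2 units has a median of 5.38 on each array and served as an alternative; how they normalised it is not given in the sources used here.

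Outlier spots were left out, spots of a probe averaged, and log2 signals centred on the 75th percentile of non-control spots (664, 750 and 652 in wildtype, LIFR KO and gp130 KO). Accessions were matched to the GRCm38.p6 gene table, naming 27234 of 39429 probes, and each gene was read from its brightest probe. A gene was compared when well above background on at least 1 of 2 arrays, with a bound where on 1 only. Settings tried were array median and quantile scaling, normexp (limma 3.58.1, offset 50) with and without stray-signal spots (background over 2 times the array median), other filters and the mean over probes. The ratio computation was checked on a simulated array, the wildtype spots with noise and known folds put into genes well above background. That check did not cover stray signal, differences in detection between arrays or normexp. Members and lists were chosen with earlier results of these data known. Named genes were the highest and lowest of each complex per comparison, undetected members, isoform families and complex II. Members past a log2 ratio of 0.32 in a knockout over wildtype were named under a condition. They had to pass it the same way with quantile normalisation or with normexp fitted without the stray signal. In each other list the 2 highest and 2 lowest ratios past 0.32 were named. Core, stalk, ring and assembly factor genes described beside them were added by role. The arrays' number limits precision.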

Additional observations from a re-analysis of the deposited data

How the results depend on the processing

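Of the medians and counts recomputed under 12 alternatives, 265 stayed near the main value and 53 moved. No paired analysis was possible because each genotype has 1 array. With array median scaling, LIFR KO over wildtype gave medians of 0.23 for members, 0.23, 0.19, 0.22, 0.19 and 0.25 for complexes I to V and -0.078 for assembly factors, with 10 members higher and 2 lower past 0.32, beside 23.7% and 11.7% of all genes. gp130 KO over LIFR KO then gave -0.11 for members, -0.10, -0.065, -0.17, -0.087 and -0.11 for the complexes and -0.0025 for assembly factors, with 2 lower, beside 16.6%.

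With normexp fitted with the stray signal, LIFR KO over wildtype gave -0.39 for members and -0.39, -0.38, -0.40, -0.40 and -0.41 for complexes I to V, with 5 higher and 59 lower past 0.32, beside 38.5% and 22.3% of all genes, and 2 past 2-fold. gp130 KO over LIFR KO then gave 0.48 for members, 0.48, 0.57, 0.48, 0.48 and 0.51 for the complexes and 0.29 for assembly factors, with 74 higher and 5 lower, beside 23.9% and 37.1%, and 2 past 2-fold, and gp130 KO over wildtype had 0 lower. Cox6a2 (1.71), Ndufaf3 (0.41), Ndufaf5 (0.66) and Ndufv3 (-0.12) reversed in LIFR KO over wildtype, and Ndufaf5 (-0.53) in gp130 KO over LIFR KO. Fitted without the stray signal, normexp gave 2 higher and 3 lower in LIFR KO over wildtype and 0 lower in gp130 KO over wildtype. The cause was not tested beyond this pair of fits.

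Quantile normalisation and the authors' series matrix each gave 0 members higher past 0.32 in LIFR KO over wildtype, and the 75th percentile of probe means, chosen after seeing the data, gave 2. Without a filter on dim probes 4 were higher in LIFR KO over wildtype and 1 past 2-fold, 1 and 1 in gp130 KO over wildtype, and 5 higher, 2 lower and 2 past 2-fold in gp130 KO over LIFR KO, since undetected members then count. Leaving out the assembly factors gave 3 lower in LIFR KO over wildtype, 1 lower in gp130 KO over wildtype and 1 higher in gp130 KO over LIFR KO. Of the named members' ratios, 952 stayed near the main value, 153 moved and 5 reversed. The LIFR KO over wildtype ratio of Cox6a2, near the lowest signal called well above background, ran from -0.53 to 1.71 over the settings. That of Cox6a1, far above that signal, ran from -0.45 to 0.23. The part of the background correction in these ranges was not tested.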
